A study of Mus musculus with 15 samples.

Results

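Genes of the major histocompatibility complex (MHC) class I antigen presentation pathway were followed in whole-lung RNA of a mouse asthma model. The 10 genes were chosen by symbol from a table of 24054 genes: the heavy chains H2-K1 and H2-D1, the light chain B2m, the peptide transport and loading genes Tap1, Tap2 and Tapbp, the immunoproteasome subunits Psmb8, Psmb9 and Psmb10, and the regulator Nlrc5. All 10 were found, and all 10 were among the 15905 genes that passed the filter on low counts.

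The study had 15 female wild-type Balb mice in 3 groups of 5, each labelled as a biological replicate. Saline mice were sham-sensitised and received an isotype control antibody. Mice of the OVA group received ovalbumin (OVA) by the intraperitoneal route for sensitisation and then as a nebulised challenge, together with the isotype control. The anti-IL-4Ra group received the same OVA regimen with 30 mg/kg of a monoclonal antibody against mouse IL-4Ra, the receptor subunit shared by IL-4 and IL-13. Every animal thus received an antibody, and no group received anti-IL-4Ra without OVA. Ages, dose timing and batches are not known from the labels.

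MHC class I molecules display peptides from proteins made inside the cell to CD8+ T cells. The proteasome cuts proteins into peptides, the TAP transporter carries them into the endoplasmic reticulum, and tapasin helps to load them onto a heavy chain paired with beta-2 microglobulin. Interferons induce most of these genes, in part through the transactivator NLRC5, and in interferon-exposed and immune cells the catalytic proteasome subunits are exchanged for the immunoproteasome subunits. Nearly all nucleated cells carry class I molecules, whereas class II molecules are mostly restricted to antigen-presenting cells.

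Promoter windows were available from RefSeq (GRCm38.p6) for 8 of the 10 genes, with no entry for Tap2 or Nlrc5. The stretches below are shown because the genes of the heavy and light chains share a spaced pair of motifs just before their start sites. They are written 5′ to 3′ on the strand of the gene, with TGACG and ATTGG in capitals. H2-K1 lies at chr17:34000349-34000448 on the minus strand, H2-D1 at chr17:35262933-35263032 on the plus strand and B2m at chr2:122147549-122147648 on the plus strand.
H2-K1: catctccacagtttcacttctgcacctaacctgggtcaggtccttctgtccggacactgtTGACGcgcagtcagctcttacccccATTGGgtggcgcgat
H2-D1: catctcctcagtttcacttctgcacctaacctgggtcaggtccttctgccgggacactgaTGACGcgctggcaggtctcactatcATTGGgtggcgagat
B2m: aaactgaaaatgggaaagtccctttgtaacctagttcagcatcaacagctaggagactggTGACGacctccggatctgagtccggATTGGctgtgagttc

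Aligned on these motifs without gaps, the 100 bases of H2-K1 and H2-D1 were identical at 88 positions, and those of H2-K1 and B2m at 44. TGACG followed by 20 bases of any kind and ATTGG, searched on both strands and chosen after these sequences were seen, was present in 27 of 27025 genes with a window of the same length (0.0999%). The 27 included these 3 genes and H2-M3, and none of 6 class II genes with a window. CCAAT, whose reverse complement is ATTGG and which therefore overlaps the spaced pair, was present in 6 of the 8 genes and in 41.1% of all windows. GAAA, 2 bases of any kind and GAAA, the core of an interferon-stimulated response element, was found in B2m alone (3.99% of all genes with a window). TTC and GAA with 3 bases of any kind between them was found in Psmb8 alone (9.55%), and the same with 4 bases between them in Psmb10 alone (8.01%). Each was searched on both strands as an exact string. A response element that differs from the string at any base is missed, so a gene without a match may still carry such an element.

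Tap1 and Psmb9 are transcribed in opposite directions from start sites with 225 bases between them, so they share the stretch at chr17:34187331-34187555. It is shown because both genes are described together, on the plus strand as read towards Tap1, with CCAAT in capitals.
Tap1 and Psmb9: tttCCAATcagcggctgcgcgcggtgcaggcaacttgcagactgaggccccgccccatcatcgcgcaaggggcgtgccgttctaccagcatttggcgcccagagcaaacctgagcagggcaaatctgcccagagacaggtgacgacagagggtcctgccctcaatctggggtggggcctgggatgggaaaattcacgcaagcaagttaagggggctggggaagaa

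The saline libraries held 16774300 to 27570700 expected counts, the OVA libraries 10042800 to 14706100 and the anti-IL-4Ra libraries 12317800 to 16914500. Levels are given as CPM, counts scaled to library totals adjusted by TMM factors (edgeR's trimmed mean of M-values), which compare a gene between libraries and not one gene with another. The share of counts on Rn45s, the ribosomal RNA precursor, was 1.19 to 2.88% in the saline libraries, 4.31 to 12.4% in the OVA libraries and 1.65 to 12.4% in the anti-IL-4Ra libraries. It was over 9% in OVA replicate 5 and in anti-IL-4Ra replicates 1, 3 and 4, a limit chosen after the data were seen. Fits without these 4 libraries keep only replicates 2 and 5 of the anti-IL-4Ra group. Genes count as called where the adjusted p was under 0.05 in edgeR's quasi-likelihood test, with Benjamini-Hochberg adjustment over all genes tested, and every adjusted p of a gene below is from that test unless another is named. Log2 fold changes are given ± SE. In whole lung, fewer cells of a type and less RNA per cell cannot be told apart.

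**Figure D1:**
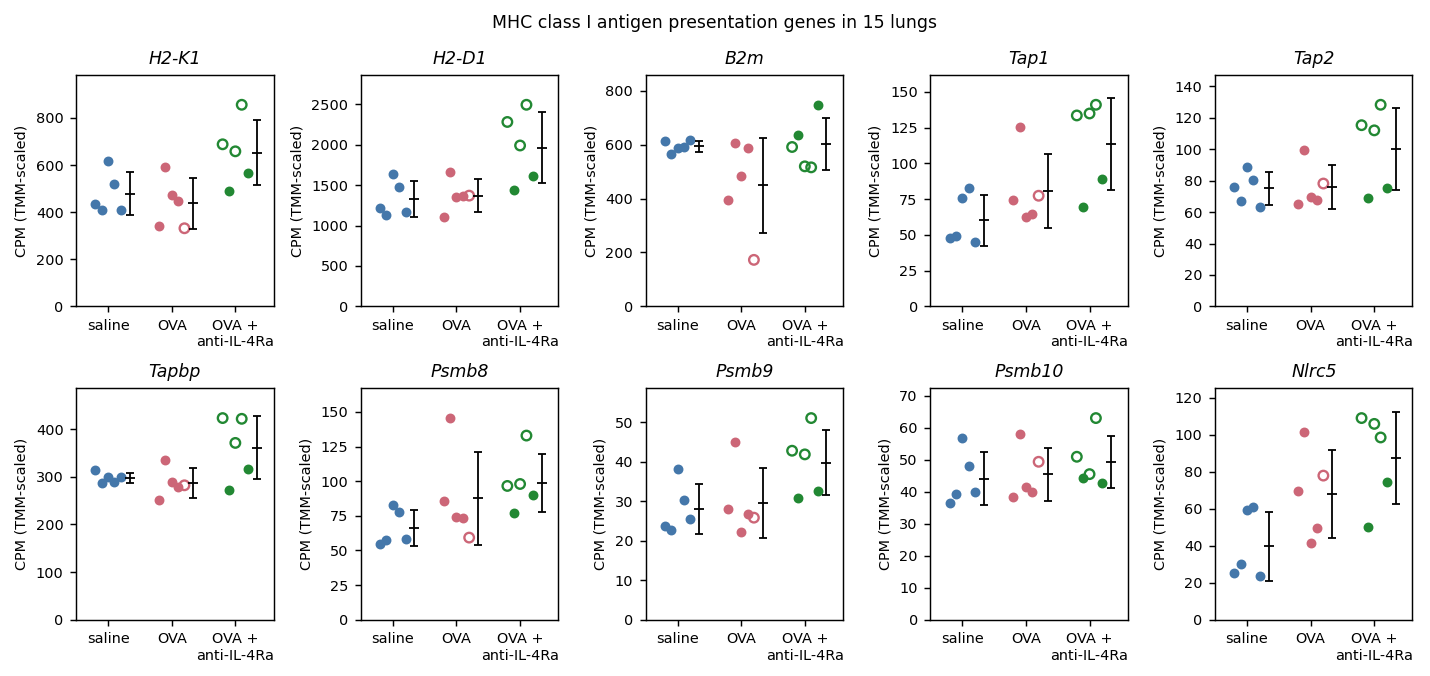
Level of each of the 10 genes in CPM (y axis, linear from 0) in the 5 libraries of the saline, OVA and anti-IL-4Ra groups (x axis). Points are libraries, open circles are the 4 libraries with an Rn45s share over 9%, and the dash and bar are the group mean ± SD. The groups overlap for every gene, and B2m of OVA replicate 5 lies at 173 CPM, below all other libraries.

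OVA against saline asks what the allergen regimen changed in the lung, and in this comparison no gene of the class I pathway was called. Of all genes tested, 37.1% were called (19.3% higher), and of the 10 class I genes 0 were called in either direction. One of them, Nlrc5, had an unadjusted p under 0.05, where 46.7% of all genes did. DESeq2 called 1 of the 10, again Nlrc5, and limma-voom called 0, where they called 6519 and 5976 of all genes. The median log2 fold change of the 10 was 0.05, from -0.40 for B2m to 0.77 for Nlrc5, beside 0.02 over all genes, and 7 of the 10 values were above 0. The groups overlapped in all 10, while 26.6% of all genes had groups without overlap (12.1% with OVA higher). With the log2 Rn45s share as a covariate, 3 of the 10 values were above 0 and 0 were called. Over all genes that fit called 752, against 5898 without the covariate. The Rn45s shares of the saline and OVA libraries did not overlap, so it separates share from group poorly. Without the 4 libraries over 9%, 7 of the 10 values were above 0 and 0 were called, where 5967 of all genes were called.

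Anti-IL-4Ra against OVA asks what blocking the receptor changed in allergen-treated lungs. All 10 fold changes were above 0, from 0.12 for Psmb10 to 0.58 for H2-K1 with a median of 0.41, beside -0.00 over all genes, where 49.5% of the values were above 0. None of the 10 was called, in a comparison that called 0.302% of all genes (48). Unadjusted p was under 0.05 for 5 of them (H2-K1, H2-D1, Tap2, Tapbp and Psmb9) and for 5.68% of all genes. The groups overlapped in all 10 genes, while 1.17% of all genes had groups without overlap. DESeq2 and limma-voom also called 0 of the 10, with 6 and 4 at an unadjusted p under 0.05. Over all genes they called 128 and 51, with 972 and 854 at an unadjusted p under 0.05. The Rn45s fits differed: with the covariate all 10 fold changes were above 0, with 6 at an unadjusted p under 0.05, and without the 4 libraries over 9% 5 of the 10 were above 0, with 1. Each called 0.

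Anti-IL-4Ra against saline shares its libraries with the other comparisons. Here H2-D1, Tap1 and Nlrc5 rose, so 3 of 10 were called higher and 0 lower, where 26.6% of all genes were called and 13.9% were called higher. All 10 fold changes were above 0, from 0.02 for B2m to 1.14 for Nlrc5, with a median of 0.47 beside 0.02 over all genes. Unadjusted p was under 0.05 for 8 of the 10 and for 39.6% of all genes. No gene of the 10 had groups without overlap, against 19.8% of all genes (9.53% with anti-IL-4Ra higher). With the log2 Rn45s share as a covariate 0 of the 10 were called and 7 were above 0. Without the 4 libraries over 9%, which leaves only anti-IL-4Ra replicates 2 and 5, 0 were called and 9 were above 0. Over all genes these fits called 373 and 569, against 4236 in the main fit. The part of the Rn45s share in these values was not tested beyond those fits.

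**Figure D2:**
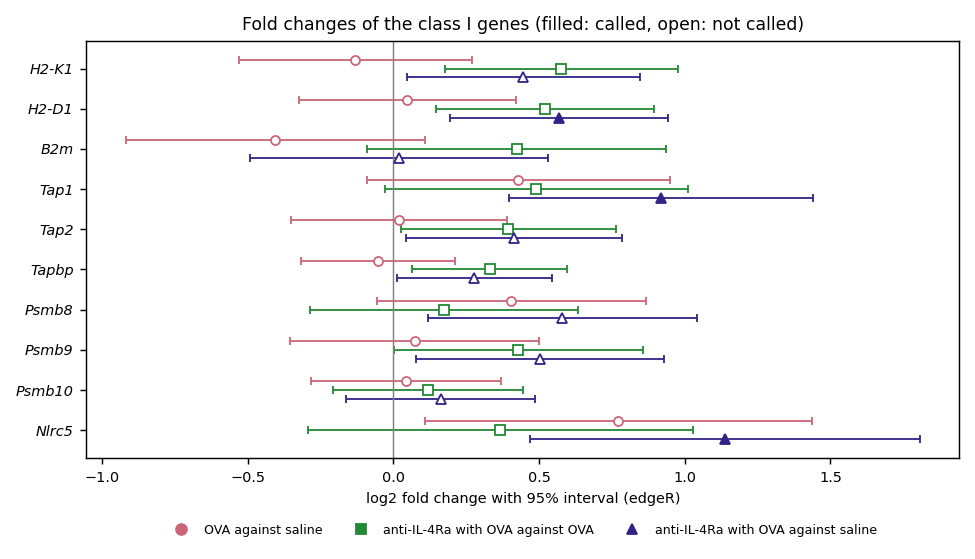
Log2 fold change of the 10 genes (x axis) in the 3 comparisons, with 95% confidence intervals from the edgeR fit as bars and filled points where the gene was called. The filled points are H2-D1, Tap1 and Nlrc5 in anti-IL-4Ra against saline.

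H2-D1 and H2-K1 encode the classical heavy chains that hold the peptide. H2-D1 was measured at 1220.2, 1135, 1639, 1472 and 1162 CPM in the saline libraries, at 1100.5, 1667, 1350.4, 1363 and 1369.9 CPM with OVA, and at 2281, 1446, 1990.0, 2494 and 1615 CPM with anti-IL-4Ra, each in the order of replicates 1 to 5. The saline and OVA ranges nearly coincided, and anti-IL-4Ra replicates 1, 3 and 4 lay above every library of both other groups. The change from saline to anti-IL-4Ra was 0.57 ± 0.18 (1326 ± 220.2 to 1965 ± 439 CPM, mean ± SD, n = 5 each, edgeR adjusted p = 0.027). Against OVA it was 0.52 ± 0.18 (adjusted p = 0.51), and between OVA and saline 0.05 ± 0.18 (adjusted p = 0.85). Leaving out any of saline replicates 1, 2 and 5 or of anti-IL-4Ra replicates 1, 3 and 4 ended the call (edgeR adjusted p from 0.054 to 0.083). The same held with the Rn45s covariate (0.19, adjusted p = 0.61) and without the 4 libraries over 9% (0.23, adjusted p = 0.53).

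H2-K1 was at 435, 407, 618, 521 and 410.5 CPM with saline, at 341, 591, 473, 449 and 332 CPM with OVA, and at 688, 489.9, 658, 856 and 567 CPM with anti-IL-4Ra. The same 3 anti-IL-4Ra libraries were the highest of all 15. Against OVA the log2 fold change of H2-K1 was 0.58 ± 0.19 with a 95% interval from 0.18 to 0.98, the largest of the 10 in that comparison, at an unadjusted p of 0.0076 and an edgeR adjusted p of 0.47. It was 0.45 ± 0.19 against saline (adjusted p = 0.090) and -0.13 ± 0.19 between OVA and saline (adjusted p = 0.61). Against OVA the value was 0.59 with the Rn45s covariate and 0.20 without the 4 libraries over 9%, and against saline it was 0.18 and 0.16.

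B2m encodes the light chain that every classical heavy chain needs to reach the cell surface. It lay within 565 to 616 CPM in all 5 saline libraries. With OVA it was at 395, 605, 484, 588 and 173 CPM, and with anti-IL-4Ra at 591, 637, 519.6, 516 and 748 CPM. OVA replicate 5, with the highest Rn45s share (12.4%) and the fewest counts (10042800), was far below every other library. The remaining OVA libraries lay on both sides of the saline minimum. The log2 fold changes were -0.40 ± 0.24 for OVA against saline (95% interval -0.92 to 0.11, edgeR adjusted p = 0.20), 0.42 ± 0.24 for anti-IL-4Ra against OVA (adjusted p = 1.0) and 0.02 ± 0.24 for anti-IL-4Ra against saline (adjusted p = 0.96). Without OVA replicate 5 the first value was -0.20 and the second 0.22, and neither was called. With the Rn45s covariate the values were 0.0063, 0.39 and 0.40 in the same order. Without the 4 libraries over 9% they were -0.19, 0.43 and 0.24, and none was called. OVA replicate 5 also had the lowest summed level of the 14 constitutive proteasome genes, at 559 CPM against 761 to 962 CPM in the other libraries.

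Tap1 and Tap2 encode the paired subunits of the peptide transporter. Tap1 was at 47.5, 49.1, 76.0, 82.7 and 45.0 CPM with saline, at 74.1, 126, 62.7, 64.4 and 77.3 CPM with OVA, and at 133, 69.3, 135, 141 and 89.3 CPM with anti-IL-4Ra. Saline replicates 3 and 4 reached into the OVA range, and anti-IL-4Ra replicates 1, 3 and 4 again lay above all other libraries. From saline to anti-IL-4Ra Tap1 rose by 0.92 ± 0.25 (60.03 ± 17.8 to 114 ± 32.2 CPM, n = 5 each, edgeR adjusted p = 0.013). The difference between OVA and saline was 0.43 ± 0.24 (adjusted p = 0.18) while anti-IL-4Ra against OVA gave 0.49 ± 0.24 (adjusted p = 0.96). The call of Tap1 held in each of the 15 fits that left out 1 library. It was lost with the Rn45s covariate (0.36, edgeR adjusted p = 0.49) and without the 4 libraries over 9% (0.42, adjusted p = 0.43).

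Tap2 ranged from 63.2 to 88.6 CPM with saline, from 65.3 to 99.4 CPM with OVA and from 68.9 to 128 CPM with anti-IL-4Ra. Its log2 fold changes were 0.02 ± 0.17 for OVA against saline, 0.39 ± 0.17 for anti-IL-4Ra against OVA (edgeR adjusted p = 0.81) and 0.41 ± 0.17 for anti-IL-4Ra against saline (adjusted p = 0.089). The last was called when anti-IL-4Ra replicate 2 or 5, the libraries of that group with low Rn45s shares, was left out. It was -0.11 with the Rn45s covariate and -0.033 without the 4 libraries over 9%. Against OVA those fits gave 0.42 and -0.05, and the covariate moved OVA against saline to -0.53 (edgeR adjusted p = 0.078). Tapbp encodes tapasin, which bridges TAP and the heavy chain. It ranged from 288 to 314 CPM with saline, from 251 to 336 CPM with OVA and from 273 to 423 CPM with anti-IL-4Ra. Its values were -0.05 ± 0.13, 0.33 ± 0.13 (adjusted p = 0.63) and 0.28 ± 0.13 (adjusted p = 0.11) in the same order of comparisons, and the last was called without anti-IL-4Ra replicate 2. With the Rn45s covariate and without the 4 libraries, Tapbp was at -0.0018 and 0.0087 against saline and at 0.35 and 0.043 against OVA.

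The immunoproteasome subunits replace catalytic subunits of the constitutive proteasome. Psmb8 was at 54.6, 57.7, 83.1, 77.4 and 58.2 CPM with saline, at 85.5, 146, 74.4, 73.5 and 59.3 CPM with OVA, and at 96.6, 76.8, 98.0, 133 and 90.1 CPM with anti-IL-4Ra. OVA replicate 2 was the highest library, and the saline libraries overlapped both other groups. The log2 fold change was 0.41 ± 0.22 for OVA against saline (edgeR adjusted p = 0.15), 0.17 ± 0.22 for anti-IL-4Ra against OVA and 0.58 ± 0.22 for anti-IL-4Ra against saline (adjusted p = 0.059). The last was called by DESeq2 (adjusted p = 0.035), in a fit of those 2 groups alone, and without saline replicate 3, OVA replicate 2 or OVA replicate 5. It was 0.32 with the Rn45s covariate (edgeR adjusted p = 0.55) and 0.36 without the 4 libraries over 9% (adjusted p = 0.43), and anti-IL-4Ra against OVA was then 0.19 and -0.16.

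Psmb9 was at 23.6, 22.8, 38.3, 30.3 and 25.5 CPM with saline, at 28.1, 44.9, 22.2, 26.8 and 25.8 CPM with OVA, and at 42.8, 30.7, 41.9, 51.1 and 32.5 CPM with anti-IL-4Ra. Apart from saline replicate 3 and OVA replicate 2, every saline and OVA library lay below the anti-IL-4Ra minimum. Its log2 fold changes were 0.07 ± 0.20, 0.43 ± 0.20 (edgeR adjusted p = 0.88) and 0.50 ± 0.20 (adjusted p = 0.074), in the order OVA against saline, anti-IL-4Ra against OVA and anti-IL-4Ra against saline. The last was called without saline replicate 3 or OVA replicate 2, and was 0.12 with the Rn45s covariate and 0.19 without the 4 libraries over 9%. Against OVA those fits gave 0.46 and 0.072. Psmb10 had means of 44.0 ± 8.29, 45.4 ± 8.21 and 49.3 ± 8.26 CPM in the saline, OVA and anti-IL-4Ra groups, with a log2 fold change of 0.16 ± 0.15 for anti-IL-4Ra against saline (adjusted p = 0.45).

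Nlrc5 encodes a nucleotide-binding, leucine-rich repeat protein that drives transcription of class I genes. It was at 25.2, 30.3, 59.5, 60.7 and 23.4 CPM with saline, at 69.3, 101, 41.5, 49.9 and 77.9 CPM with OVA, and at 109, 50.1, 106, 98.6 and 74.3 CPM with anti-IL-4Ra. Saline replicates 3 and 4 lay within the range of both other groups, and the other saline libraries lay below both ranges. Nlrc5 rose by 1.14 ± 0.31 from saline to anti-IL-4Ra (39.8 ± 18.7 to 87.6 ± 25.0 CPM, n = 5 each, edgeR adjusted p = 0.015). The difference between OVA and saline was 0.77 ± 0.31 (95% interval 0.11 to 1.44, adjusted p = 0.064), while the value for anti-IL-4Ra against OVA was 0.37 ± 0.31 (adjusted p = 1.0). The call against saline held in each of the 15 fits without 1 library. It was lost with the Rn45s covariate (0.57, adjusted p = 0.42) and without the 4 libraries over 9% (0.67, adjusted p = 0.38). For OVA against saline, Nlrc5 was called by DESeq2 (adjusted p = 0.040) and without saline replicate 3, saline replicate 4 or OVA replicate 3.

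**Figure D3:**
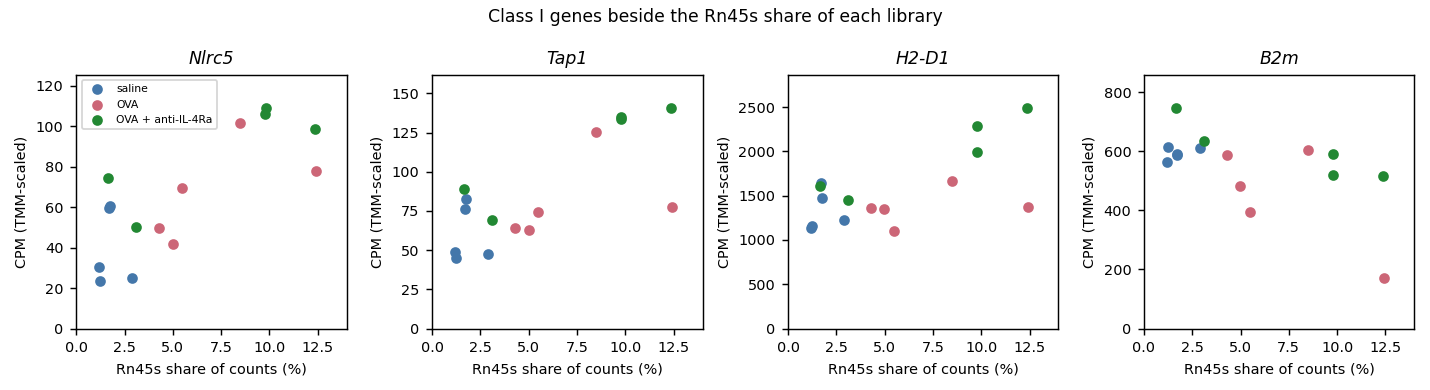
Level in CPM (y axis, linear from 0) against the share of counts on Rn45s in percent (x axis) for Nlrc5, Tap1, H2-D1 and B2m, 1 point per library, coloured by group. Within the anti-IL-4Ra group, the 3 libraries with shares of 9.79 to 12.4% have higher levels of H2-D1, Tap1 and Nlrc5 than the libraries at 3.10 and 1.65%.

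Ratios of partner genes within a library do not depend on how libraries are scaled. They were compared as log2 ratios of counts in 6 pairs and 3 comparisons by two-sided exact permutation tests, where the smallest possible p is 0.00794 and p was adjusted over the 18 tests. None of the 18 had an adjusted p under 0.05, and 4 had an unadjusted p under 0.05. In anti-IL-4Ra against saline, Psmb8 relative to Psmb5, the subunit it replaces, was higher by 0.58 (0.63 ± 0.23 to 1.22 ± 0.19, exact p = 0.0159). In the same comparison Psmb9 relative to Psmb6 was higher by 0.73 (-1.04 ± 0.26 to -0.31 ± 0.32) and Tap1 relative to Tap2 by 0.53 (-0.36 ± 0.28 to 0.17 ± 0.10), both also at an exact p of 0.0159. Each of these 3 had an adjusted p of 0.0952 in the permutation test, and the groups overlapped in each. Anti-IL-4Ra replicates 1, 3 and 4, the libraries over 9% Rn45s, lay above replicates 2 and 5 in Psmb9 to Psmb6. The same held for Psmb10 to Psmb7 and for both heavy chains to B2m. In Psmb8 to Psmb5 and Tap1 to Tap2 they did not all lie above. No ratio was tested with the Rn45s share taken into account.

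For OVA against saline, Tap1 relative to Tap2 differed by 0.42 (exact p = 0.0397, adjusted p = 0.179) and Psmb8 relative to Psmb5 by 0.42 (exact p = 0.0952, adjusted p = 0.245). Psmb10 relative to Psmb7 differed by 0.05 to 0.25 across the 3 comparisons, with exact p from 0.341 to 0.802. The heavy chains relative to B2m differed by 0.39 for H2-K1 and 0.58 for H2-D1 between OVA and saline (exact p = 0.183 and 0.0714), and by 0.05 and -0.03 between anti-IL-4Ra and OVA. In OVA replicate 5, at an Rn45s share of 12.4%, the H2-D1 to B2m log2 ratio was 2.99. The other OVA libraries lay between 1.21 and 1.48. Without OVA replicate 5 the differences between OVA and saline were 0.16 for H2-K1 and 0.27 for H2-D1.

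**Figure D4:**
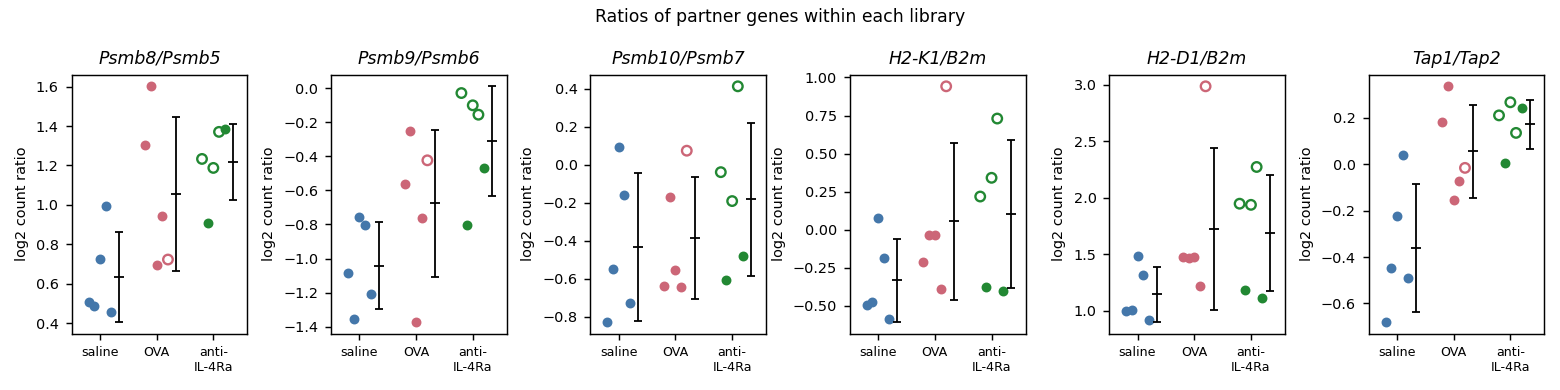
Log2 ratio of counts within each library (y axis) for 6 pairs of partner genes, by group (x axis), with points as libraries, open circles as the 4 libraries with an Rn45s share over 9%, and the dash and bar as mean ± SD. The groups overlap in every pair, and OVA replicate 5 stands apart in H2-K1 and H2-D1 over B2m.

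The 10 genes varied together across libraries to unequal degrees. Over the 15 libraries, which share depth, scaling and group differences, Pearson r of log2 CPM was 0.95 for Tap1 and Nlrc5, 0.94 for H2-D1 and Tap2, and 0.92 for H2-K1 and H2-D1. All pairs without B2m had r from 0.53 to 0.95. B2m stood apart, with r from -0.20 for Nlrc5 to 0.48 for H2-K1. The 5 genes outside the list whose levels were most like the mean of the 10 were H2-T23 (r = 0.93), H2-Q9 (0.92), Ctsw (0.92), H2-Q5 (0.92) and H2-T10 (0.91), over the same 15 libraries. Of these, 4 are other MHC class I genes, and reads of near-identical class I genes may be divided among them by estimation.

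Of 25 other class I and class I-like genes 23 were tested. With OVA against saline 2 of these were called higher and 2 lower, beside 37.1% of all genes. The largest change was that of H2-M2, a nonclassical class I gene, which went from 0.941, 0.659, 0.656, 1.36 and 1.10 CPM with saline to 9.09, 18.0, 10.9, 20.4 and 16.4 CPM with OVA, and was at 4.54, 5.78, 4.59, 8.81 and 2.95 CPM with anti-IL-4Ra. The 3 groups did not overlap. H2-M2 rose by 3.99 ± 0.33 with OVA (edgeR adjusted p = 3.3e-06) and was lower with anti-IL-4Ra than with OVA by a log2 change of -1.49 ± 0.29 (adjusted p = 0.041). It was the 1 gene of this list called in that comparison, against 0 of the 10 pathway genes and 0.302% of all genes. Most genes of the list went the other way there. Of the 23 log2 fold changes 20 were above 0, with a median of 0.28, where 49.5% of all genes were above 0. Unadjusted p was under 0.05 for 9 of the 23 and for 5.68% of all genes. The call of H2-M2 was lost in 9 of the 15 fits without 1 library (edgeR adjusted p from 0.057 to 0.136). These left out saline replicates 1 and 5, OVA replicates 2, 4 and 5, and anti-IL-4Ra replicates 1, 2, 3 and 5. The call was also lost in a fit of the 2 groups alone (adjusted p = 0.126) and without the 4 libraries over 9% Rn45s (-1.73, adjusted p = 0.145). H2-M5 (1.01 ± 0.35, adjusted p = 0.032) was higher with OVA, and Cd1d2, which presents lipids (-1.09 ± 0.40, adjusted p = 0.045), and H2-T24 (-0.35 ± 0.11, adjusted p = 0.024) were lower. With the Rn45s covariate none of these 3 was called in OVA against saline, and H2-M2 was, in a fit that left 752 calls over all genes.

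In anti-IL-4Ra against saline, 5 genes of that list rose and 1 fell, where 26.6% of all genes were called. H2-Q1 (0.81 ± 0.23), H2-Q8 (1.02 ± 0.34), H2-T10 (0.82 ± 0.19), H2-M3 (0.69 ± 0.20) and H2-M2 (2.50 ± 0.33) were higher, and Hfe, a regulator of iron uptake, was lower (-0.49 ± 0.14). H2-Q1, H2-T10 and H2-M3 were higher in anti-IL-4Ra replicates 1, 3 and 4, the libraries over 9% Rn45s, than in replicates 2 and 5. With the Rn45s covariate 2 of the 23 were called, H2-M2 and H2-Q7, and without the 4 libraries 1, H2-M2. Over all genes those fits called 373 and 569. H2-L, a class I gene of the d haplotype, was not called in any comparison (anti-IL-4Ra against saline 1.14 ± 0.51, edgeR adjusted p = 0.11).

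Of 10 further genes for peptide trimming and loading, 2 rose with OVA: Hspa5, an endoplasmic reticulum chaperone (0.62 ± 0.15, edgeR adjusted p = 0.0056), and Uggt1, which checks glycoprotein folding (0.22 ± 0.09, adjusted p = 0.049). In OVA against saline 37.1% of all genes were called. Neither Hspa5 nor Uggt1 was called with the Rn45s covariate, which lowered the calls over all genes from 5898 to 752. None of the 10 was called between anti-IL-4Ra and OVA, where 0.302% of all genes were. None had an unadjusted p under 0.05, where 5.68% of all genes did. Of 9 proteasome activator and assembly genes, 0 were called in any comparison by edgeR. For OVA against saline 3 had an unadjusted p under 0.05, where 46.7% of all genes did. In the other comparisons 0 did, where 5.68% (anti-IL-4Ra against OVA) and 39.6% (anti-IL-4Ra against saline) of all genes did. Of 14 constitutive proteasome genes 1 was called, in OVA against saline, where 37.1% of all genes were called. This gene, Psmb3, was lower with OVA than with saline (-0.52 ± 0.18, adjusted p = 0.029), and was not called with the Rn45s covariate.

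Among 13 transcription factors of class I genes, Irf8 (0.76 ± 0.26, edgeR adjusted p = 0.029) and Rfx5, a subunit of the complex that binds MHC promoters (0.54 ± 0.16, adjusted p = 0.015), rose with OVA, and Rela, a subunit of NF-kappaB, fell by 0.58 ± 0.10 (adjusted p = 0.00051). Of all genes, 37.1% were called in that comparison. With the Rn45s covariate Rela was the 1 gene of the 13 called there, and 752 were called over all genes. Between anti-IL-4Ra and OVA 0 of the 13 were called, where 0.302% of all genes were. Ifng itself did not pass the filter, with 18 counts over the OVA libraries and 44 over the anti-IL-4Ra libraries.

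Genes that interferon-gamma induces gave 2 called higher and 2 lower of 8 tested with OVA, where 37.1% of all genes were called. Cxcl9, a T cell chemokine (2.34 ± 0.55, edgeR adjusted p = 0.0041), and Socs1, an inhibitor of cytokine signalling (1.54 ± 0.27), rose. Gbp2 and Gbp3, interferon-induced GTPases, fell by 0.69 ± 0.15 and 0.51 ± 0.16. Between anti-IL-4Ra and OVA 0 of the 8 were called by edgeR, where 0.302% of all genes were called. Unadjusted p was under 0.05 for 7 of them and for 5.68% of all genes, and their median log2 fold change was 0.72. In anti-IL-4Ra against saline 4 of the 8 rose, where 13.9% of all genes were called higher. Both Rn45s fits left 2 of these calls, Cxcl9 and Cxcl10. With the covariate 0 of the 8 were called in OVA against saline, where that fit called 752 of all genes.

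The class II genes gave other values in the same libraries. All 9 rose with OVA over saline, with a median log2 fold change of 1.10, including their transactivator Ciita (1.68 ± 0.31, edgeR adjusted p = 0.00087), H2-Ob (2.25 ± 0.45) and H2-Oa (2.15 ± 0.53). Of all genes, 19.3% were called higher in that comparison. Beside the class II genes, 0 of the 10 class I genes were called. Nlrc5, the class I counterpart of Ciita, had a value of 0.77 ± 0.31. Between anti-IL-4Ra and OVA, 0 of the 9 class II genes were called by edgeR, beside 0.302% of all genes. None had an unadjusted p under 0.05, beside 5.68% of all genes, and the median of the 9 was -0.09. With the Rn45s covariate 0 of the 9 were called in OVA against saline, in a fit that called 752 of 15905 genes. All 9 were above 0 there, with a median of 0.58. Without the 4 libraries all 9 were called, in a fit that called 5967 of all genes. The difference between class I and class II genes was not tested.

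**Figure D5:**
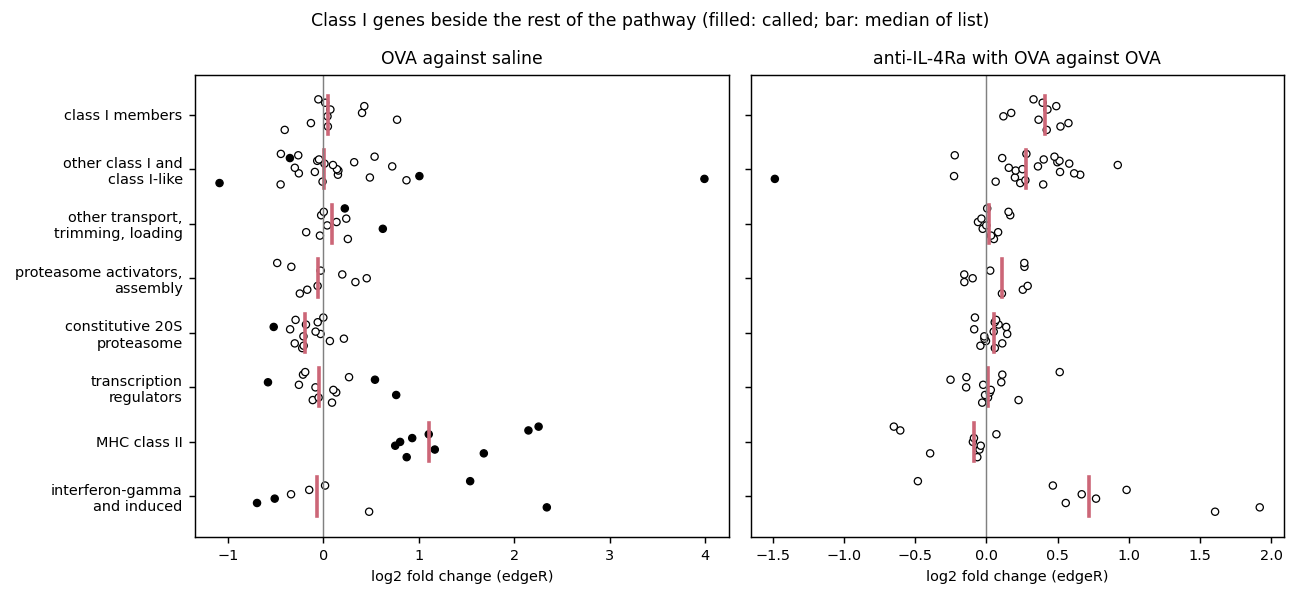
Log2 fold change (x axis) of every tested gene of the class I pathway and 7 related lists (y axis) in OVA against saline and in anti-IL-4Ra against OVA, with 1 point per gene, filled where called, and a bar at the median of each list. The 9 class II genes all lie above 0 in OVA against saline, whereas the 10 class I genes lie between -0.40 and 0.77.

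Markers of other cells moved between the same groups. With OVA, 4 of 5 pan-leukocyte, 6 of 8 T cell, 6 of 6 B cell and 2 of 6 dendritic cell genes were higher. Of 6 natural killer cell genes 4 were lower. Over all genes, 19.3% were called higher and 17.8% lower. The summed leukocyte level was 511 to 669 CPM in the saline libraries, 633 to 1815 CPM in the OVA libraries and 847 to 1261 CPM in the anti-IL-4Ra libraries, and the highest OVA value was that of replicate 2, also the highest OVA library of all 10 class I genes. Of the endothelial genes 7 of 8 were lower, with sums of 3616 to 4868 CPM, 1475 to 2868 CPM and 1401 to 3276 CPM in the 3 groups. All 5 club cell genes and 4 of 4 tested red cell genes were lower, 4 of 7 alveolar type 2 genes were lower and 1 was higher, and 0 of 6 cardiac muscle genes were called. Klra8, a natural killer cell marker, and Hbb-bs, a globin, were at 0 counts in all 3 groups.

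Between anti-IL-4Ra and OVA, 0 genes of any of these marker lists were called by edgeR, beside 0.302% of all genes. Unadjusted p was under 0.05 for 5 of 6 cardiac muscle genes, 3 of 5 club cell genes and 5.68% of all genes. The summed cardiac muscle level was 101 to 1568 CPM with OVA and 30.4 to 407 CPM with anti-IL-4Ra. The part of these cells in the levels of the class I genes was not tested.

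How reads were assigned to the class I genes bears on their values. Expected counts divide reads that fit several genes by an estimate. With a tolerance of 0.005, the values were not whole numbers in 13 of 15 libraries for H2-K1, in all 15 for H2-D1 and Tapbp, in 4 for Tap1 and Tap2 and in 0 for Psmb8, Psmb9, Psmb10 and Nlrc5. In each of the 4 libraries the sum of Tap1 and Tap2 was whole, so those genes exchanged reads with each other. Balb mice carry another H-2 haplotype than the C57BL/6J reference strain, and which annotation the counting used is unknown, so the levels of H2-K1 and H2-D1 are those of reads assigned to these symbols.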

How the data were processed

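Lungs of 15 mice were snap frozen and homogenised, and strand-specific libraries were made, per the labels' protocols. These name both ribosomal RNA depletion and oligo-dT beads. The authors deposited expected counts per gene symbol, unnormalized, 1 column per animal. The submitters' processing notes list Bowtie2 2.1.0 and RSEM 1.2.15, and also hg38 although the symbols are mouse. The mouse build and annotation: not given in the sources used here.

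Expected counts were rounded. Genes were kept by filterByExpr, scaled by TMM factors and fitted over all 15 libraries with edgeR 4.0.16 (limma 3.58.1, DESeq2 1.42.0, R 4.3.3), two-sided. SE came from the F statistic. Pair ratios used a pseudocount of 0.5. The fit was tested on simulated data. Alternatives were other scaling, no filter, DESeq2, limma-voom, only the groups compared, a replicate block, an Rn45s covariate and leaving out each library.

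The genes and lists were chosen with earlier results of these data known. Named beside the 10 genes were up to 3 called genes per related list by absolute fold change in OVA against saline, genes called in anti-IL-4Ra against OVA, ratio partners, and the 5 genes most like the mean of the 10. H2-T24, H2-Q1, H2-Q8, H2-M3, H2-Q7, Cxcl10, Hfe, H2-L, Ifng, Gbp3, Klra8 and Hbb-bs fall outside that rule and were chosen after their values were seen. Replicate pairs within a group differed by more than sampling noise.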

Additional observations from a re-analysis of the deposited data

Results flagged for a closer look

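In the 48 groups of 5 libraries examined for the 10 genes and 6 ratios, 4 held a library far from the others of its group (its gap to the next, divided by the range, was above 0.71). Chance would flag about 5% of such groups if their values were independent and normally distributed. The genes and ratios are not independent, so the 4 cannot be set against that rate. All 4 were in OVA replicates 2 and 5. Tap1 in OVA replicate 2 was at 126 CPM, with the next OVA library at 77.3 CPM. Psmb9 in the same library was at 44.9 CPM, with the next at 28.1 CPM. In OVA replicate 5 the log2 ratio of H2-K1 to B2m was 0.94, with the next at -0.03. The log2 ratio of H2-D1 to B2m there was 2.99, with the next at 1.48.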

How the results depend on the processing

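The 0 calls among the 10 genes between anti-IL-4Ra and OVA held under every alternative run. Between OVA and saline DESeq2 called 1 of the 10, and leaving out each library gave 0 to 1. Over all genes DESeq2 called 6519 there, and leaving out each library gave 4776 to 6619. Between anti-IL-4Ra and saline the 3 calls became 0 with the Rn45s covariate and 0 without the 4 libraries over 9% Rn45s. Leaving out each library gave 2 to 5 of the 10 in that comparison, and 2844 to 4679 over all genes. Over all genes, the covariate gave 752 calls in OVA against saline and 373 in anti-IL-4Ra against saline. Without the 4 libraries there were 569 in anti-IL-4Ra against saline and 27 in anti-IL-4Ra against OVA, where DESeq2 gave 128. The cause was not tested. Leaving out each library moved the log2 ratio difference of Psmb10 to Psmb7 in OVA against saline from -0.066 to 0.18, and those of H2-K1 and H2-D1 to B2m in anti-IL-4Ra against OVA from -0.11 to 0.27 and from -0.18 to 0.28. Of the results of single named genes, 2646 kept their direction and side of the threshold, 153 lost a call, 42 gained one, 126 without a call changed sign, and 0 with a call changed sign.

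No pairing of the animals by replicate number was seen, though such correlations cannot exclude one. The deviations of same-numbered libraries correlated at -0.55 to 0.35, over 0.1 in 2 of 15 pairs. Of the 15 libraries 2 correlated best with their own number. With the number as a replicate block, 4625, 26 and 2891 genes were called in OVA against saline, anti-IL-4Ra against OVA and anti-IL-4Ra against saline, and 0, 0 and 2 of the 10 class I genes, H2-D1 not among the last (0.57, edgeR adjusted p = 0.061). The 95% interval of B2m in OVA against saline ran from -0.92 to 0.11, with 1 library at 173 CPM.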
